A study of Mus musculus with 6 samples.

Results

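Leukocyte integrins are the adhesion receptors that let white blood cells hold on to vessel walls, to matrix and to each other. The set described here holds 7 of the 17761 genes in the deposited table, taken by gene name: the alpha chains Itgam, Itgal, Itgax and Itga4, the beta chains Itgb2 and Itgb7, and Fermt3, a cytoplasmic protein that switches integrins on. Each name matched 1 row. Expression was measured by RNA-seq in 6 mouse libraries, 3 labelled Control and 3 labelled Model. The Model samples were inferior vena cava taken with its thrombus 24 h after the vein was tied off. What was done to the Control animals is not given, the tissue label of all 6 is thrombus, and strain, sex and age are likewise not stated. Nothing in the labels ties the 3 samples of a group to separate animals, so p-values cover only the spread between these samples, possibly a technical one. Vein wall, thrombus and attached tissue were taken as 1 piece, and fewer cells of a type cannot be told apart from less RNA per cell.

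An integrin on the cell surface is a pair of 1 alpha and 1 beta chain. Itgb2 (CD18) pairs with Itgal (CD11a) to make LFA-1, with Itgam (CD11b) to make Mac-1, and with Itgax (CD11c) or Itgad (CD11d) to make further receptors. LFA-1 is carried by most white cells and is prominent on lymphocytes, Mac-1 marks neutrophils, monocytes and macrophages, and CD11c is the usual marker of dendritic cells in mice. Itga4 pairs with Itgb1 to make VLA-4, which binds Vcam1, or with Itgb7 to make the gut-homing receptor of lymphocytes, which binds Madcam1. Fermt3 encodes kindlin-3, which binds the tails of beta chains and works with talin to activate integrins in white cells and platelets.

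Itgam and Itgax are neighbours on chromosome 7, 11055 bases apart on the same strand, and Itgal lies 727.501 kb before Itgam. On GRCm38, the assembly that mm10 names, GENCODE release M21 places Itgam (ENSMUSG00000030786) at 128062640 to 128118491, Itgax (ENSMUSG00000030789) at 128129547 to 128150657 and Itgal (ENSMUSG00000030830) at 127296260 to 127335138. Itgb2 (ENSMUSG00000000290) lies on chromosome 10 at 77530252 to 77565708, and Itga4 (ENSMUSG00000027009) on chromosome 2 at 79255426 to 79333123. Itgb7 (ENSMUSG00000001281) lies on chromosome 15 at 102215995 to 102231944, and Fermt3 (ENSMUSG00000024965) on chromosome 19 at 6998958 to 7019469. In that release Itgam overlaps the gene model Gm49368 on the same strand, which has no row used here, and how reads in the shared stretch were counted is not known. Itga4 and Fermt3 overlap Cerkl and Trpt1 on the opposite strand, which held at most 86 and 10 counts in a library.

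The 250 bases before the start of 3 members are shown because their transcripts lay furthest apart between the groups or lie side by side in the genome. RefSeq on GRCm38.p6 gave a promoter for 5 of the 7 members, all but Itgal and Itgb2. Capitals mark the letters GAGGAA, the core of the PU box that myeloid transcription factors of the PU.1 kind can bind, or TGTGGT, a core that RUNX factors can bind, read on either strand. The sequences are Itgam at chr7:128062390-128062639 on the plus strand, Itgax at chr7:128129300-128129549 on the plus strand, and Itgb7 at chr15:102231936-102232185 on the minus strand.
Itgam: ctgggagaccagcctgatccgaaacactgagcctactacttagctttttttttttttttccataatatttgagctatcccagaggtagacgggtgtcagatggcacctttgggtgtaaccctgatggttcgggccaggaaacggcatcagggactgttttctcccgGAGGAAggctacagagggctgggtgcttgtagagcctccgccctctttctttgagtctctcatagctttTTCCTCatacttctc
Itgax: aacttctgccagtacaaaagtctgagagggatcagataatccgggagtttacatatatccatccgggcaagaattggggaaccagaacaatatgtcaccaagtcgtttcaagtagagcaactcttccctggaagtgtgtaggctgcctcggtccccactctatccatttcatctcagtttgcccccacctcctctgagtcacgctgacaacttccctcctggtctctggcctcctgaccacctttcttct
Itgb7: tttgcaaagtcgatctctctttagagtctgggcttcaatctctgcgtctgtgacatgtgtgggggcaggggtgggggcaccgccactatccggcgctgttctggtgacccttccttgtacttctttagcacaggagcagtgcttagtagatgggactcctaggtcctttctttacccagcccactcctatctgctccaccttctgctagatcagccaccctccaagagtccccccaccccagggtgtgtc
Itgam held GAGGAA on both strands, starting 84 and 15 bases before the start, and no TGTGGT. Neither motif was found in the windows of Itgax and Itgb7. Among the other members, Fermt3 held TGTGGT 2 times and Itga4 1 time, and neither held GAGGAA. Of all 32851 RefSeq promoter windows of the same length, 23.3% held GAGGAA and 14% held TGTGGT, so a match is common, and it is a description of the letters and not of binding.

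The libraries held 25336173 to 38118463 counts, and all 3 Model libraries were shallower than the Control ones. Levels below are CPM, a gene's count relative to the library total after TMM scaling (trimmed mean of M values). A count of 0 allows up to 3 counts, or 0.0787 to 0.118 unscaled CPM, which covers counting error only. The first principal component of all genes, with 36.9% of the variance, set Control 1 off from the rest, and the second, with 25.3%, set off Model 1. Model 2 held 4375 CPM of 4 summed liver transcripts against 29.4 to 519.7 CPM in the other libraries. All 7 members passed the filter on low counts. The test was edgeR's quasi-likelihood test on 13907 genes, and p-values were adjusted over all of them (Benjamini-Hochberg, threshold 0.05).

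Among the 7 members, Itgam rose and no other passed the test. That is 1 of 7 called, beside 4.07% of all genes tested, and beside 2.71% called higher and 1.36% called lower. At an unadjusted p under 0.05 it was 2 of 7, Itgam and Itgb7, beside 15.8% of all genes, and the groups did not overlap for these same 2 members, beside 23.5% of all genes. DESeq2 called both, Itgam higher and Itgb7 lower. Of the 7 fold changes, 4 were negative and 3 positive.

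**Figure D1:**
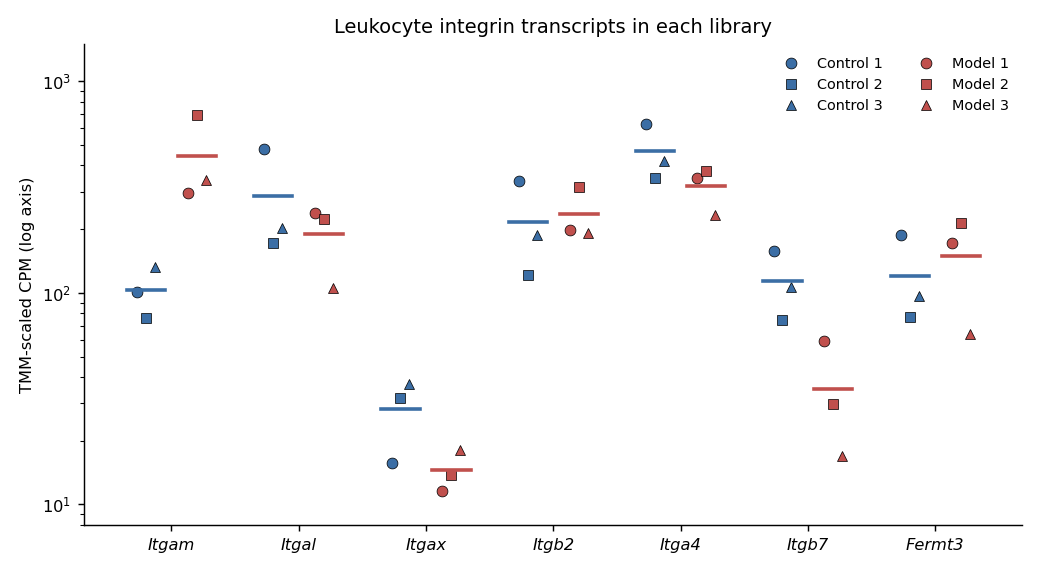
TMM-scaled CPM on a log axis for each of the 7 genes in the 3 Control (blue) and 3 Model (red) libraries, with bars at the group means. All 3 Model libraries lie above the Control libraries for Itgam and below them for Itgb7, and the groups overlap for the other 5 genes.

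Itgam, the alpha chain of Mac-1, stood at 100.6, 76.4 and 132.7 CPM in Control 1 to 3 and at 295, 692 and 342 CPM in Model 1 to 3. Every Model library was above every Control library, and Model 2 was the highest by far. The mean went from 103 ± 28.2 to 443 ± 217 CPM (SD, n = 3 each), which in log2 terms was a change of 2.10 (SE 0.35 and adjusted p = 0.00437 by edgeR's quasi-likelihood test), which is 4.29-fold. The call held in each of 14 alternative fits, with log2 fold changes from 1.61 to 2.32 and adjusted p from 7.40e-09 to 0.0463. Without Model 2 the log2 fold change was 1.62 (adjusted p = 0.00919).

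Itgal, the alpha chain of LFA-1, stood at 480.9, 173 and 202 CPM in Control 1 to 3 and at 238, 224 and 105 CPM in Model 1 to 3. Control 1 held more than any other library, and the remaining libraries overlapped. The log2 fold change was -0.59 (SE 0.40 and adjusted p = 0.533). Without Control 1 the Itgal log2 fold change was 0.00 to 2 decimals (adjusted p = 0.999), so its size rested on that library.

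Itgax, the alpha chain CD11c, was the scarcest member per kb of exon in all 6 libraries. Its levels were 15.7, 31.8 and 37.2 CPM in Control 1 to 3 and 11.6, 13.8 and 18.2 CPM in Model 1 to 3. Control 1 lay within the Model range and the other Control libraries above it. The log2 fold change of Itgax was -0.96 (SE 0.59 and adjusted p = 0.482), opposite in sign to that of its neighbour Itgam.

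Itgb2, the beta chain shared by these alpha chains, stood at 337, 121 and 187 CPM in Control 1 to 3 and at 199, 318 and 192 CPM in Model 1 to 3. Its groups overlapped throughout, with the highest and the lowest value both in Control. The means were 215 ± 111 and 236 ± 70.5 CPM (SD, n = 3 each), and the log2 fold change was 0.13 (SE 0.35 and adjusted p = 0.918). The Itgb2 sign was negative without Control 2 (-0.15) or without Model 2 (-0.15), and the value was 0.60 without Control 1 (adjusted p = 0.424).

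Itga4, the alpha chain of VLA-4, stood at 630.0, 347.0 and 420.3 CPM in Control 1 to 3 and at 347, 375 and 232 CPM in Model 1 to 3. Its Control 2, Model 1 and Model 2 values were close to each other, with Control 1 above all and Model 3 below all. The log2 fold change was -0.55 (SE 0.28 and adjusted p = 0.383), and -0.28 without Control 1 (adjusted p = 0.717).

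Itgb7, the beta chain of the gut-homing integrin, stood at 158, 74.7 and 107 CPM in Control 1 to 3 and at 58.9, 29.9 and 16.9 CPM in Model 1 to 3. All Model libraries were below all Control libraries. The means were 113 ± 41.8 and 35.3 ± 21.5 CPM (SD, n = 3 each), and the log2 fold change of -1.68 (SE 0.46) missed the threshold (adjusted p = 0.0637, unadjusted p = 0.00295, edgeR). Itgb7 was called lower in 5 of 14 alternative fits, among them upper-quartile scaling (adjusted p = 0.0435), no filter (4.92e-04), DESeq2 (0.00728) and the fit without Model 1 (0.0311). Without Control 1 the log2 fold change was -1.38 (adjusted p = 0.216).

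Fermt3, which encodes kindlin-3, stood at 187, 76.8 and 97.1 CPM in Control 1 to 3 and at 171, 214 and 64.1 CPM in Model 1 to 3. The lowest and the highest value were both in Model. Its log2 fold change was 0.32 (SE 0.43 and adjusted p = 0.804), and -0.03 without Model 2 and 0.77 without Control 1. Its partners in the platelet, Itga2b and Itgb3, are described below with the other integrins.

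Within the groups the members other than Itgam and Itgax tended to be high or low together. Itgam was highest in Control 3 among the Control libraries and lowest in Model 1 among the Model libraries. Control 1 held the highest Control level of 5 members (Itgal, Itgb2, Itga4, Itgb7 and Fermt3) and the lowest of Itgax. Model 3 held the lowest Model level of the same 5 members and the highest of Itgax. The spread of log2 CPM within Control was widest for Itgal (SD 0.80, n = 3) and narrowest for Itgam (SD 0.40), and within Model it was widest for Fermt3 (SD 0.93) and narrowest for Itgax (SD 0.33). Measured as the root-mean-square difference in log2 CPM over the 6 libraries, each gene centred on its own mean, the closest pair of members was Itgal and Itga4 (0.28) and the furthest Itgam and Itgb7 (2.06). The alpha and beta chains of the gut-homing receptor, Itga4 and Itgb7, lay 0.74 apart, and Itgam lay 0.999 from its partner Itgb2, against 0.52 for Itgal and Itgb2. These distances describe 6 libraries that also differ in depth.

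Neutrophil, platelet and red cell markers were higher in Model, T and B cell markers were lower, and monocyte and dendritic cell sums overlapped between the groups. Of 13 neutrophil markers with a row, 11 were tested, 9 rose and none fell, and their summed level went from between 30.1 and 120 CPM in Control to between 2233 and 6591 CPM in Model, highest in Model 2. Among the defining neutrophil markers, Camp was at 0 in 4 libraries, at 1.17 CPM in Control 2 and at 0.0404 CPM in Model 1, and was not tested. Ly6g was at 0 in all 3 Control libraries and at 0.0404, 12.3 and 5.79 CPM in Model 1 to 3. The 12 monocyte and macrophage markers summed to 949 to 1845 CPM in Control and 751 to 1260 CPM in Model, and none of 11 tested passed. Their median log2 fold change was -0.55, and 3 of the 11 were positive. Lyz2 alone held 1102, 493 and 988 CPM of the sums of 1592, 949 and 1845 CPM in Control 1 to 3. In Model 1 to 3 it held 530, 694 and 329 CPM of 884, 1260 and 751 CPM. Csf1r, a defining marker of that lineage, was listed at 6.48 CPM in Control 3 and below 0.05 CPM in the other 5 libraries. The 10 T cell markers summed to 616 to 1619 CPM in Control and 179 to 285 CPM in Model, and 7 fell. For the 8 B cell markers the sums were 902 to 1548 CPM and 300.0 to 588 CPM, with 4 rows of 9 tested lower. The 7 dendritic cell markers summed to 225 to 419 CPM in Control and 177 to 267 CPM in Model, with 1 of 7 lower, Siglech. Ccr7 was the 1 marker of these 7 with a positive fold change. It held 194, 80.4 and 108 CPM of the sums of 267, 177 and 203 CPM in Model 1 to 3, so the overlap leans on it. The median log2 fold change of the 7 was -1.47. The 9 platelet markers all rose, from sums of 54.3 to 152 CPM to sums of 522 to 1345 CPM. Itga2b, counted below as an integrin chain as well, held 135, 35.6 and 55.1 CPM of the sums of 152, 54.3 and 76.5 CPM in Control 1 to 3. In Model 1 to 3 it held 370, 356 and 142 CPM of 1345, 1127 and 522 CPM. The 5 red cell markers summed to 305 to 413 CPM in Control and 4450 to 26060 CPM in Model, highest in Model 2, and 3 of 4 tested rose. The 6 natural killer cell markers summed to 19.7 to 49.0 CPM in Control and 4.69 to 15.3 CPM in Model, with none of 5 tested past the threshold. The 7 eosinophil and mast cell markers summed to 65.9 to 115 CPM and 127 to 263 CPM, with 1 of 5 tested higher, Kit. Kit alone held 256, 90.1 and 136 CPM of the sums of 263, 127 and 153 CPM in Model 1 to 3. The other markers tested had negative fold changes that did not pass, so the higher sum was that of Kit. Control 1 held the highest T and B cell sums of all 6 libraries and Model 3 the lowest. The part of these cell types in the members' values was not tested.

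**Figure D2:**
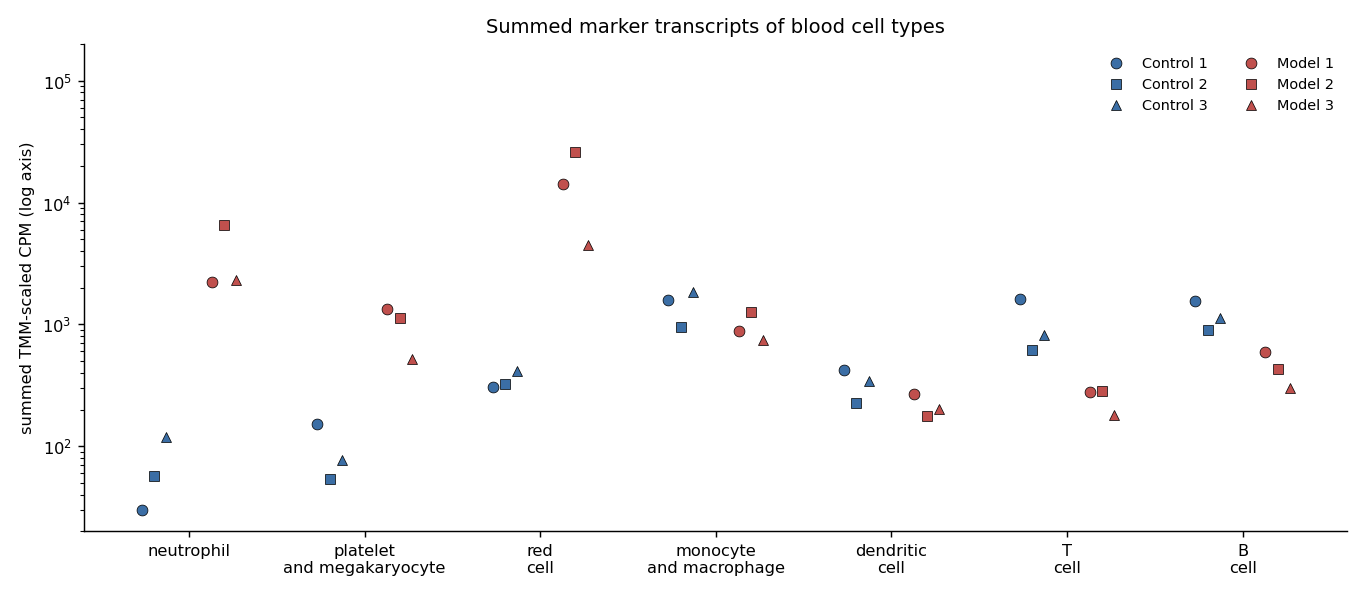
Summed TMM-scaled CPM (log axis) of fixed marker genes of 7 blood cell types in each library, Control in blue and Model in red. Neutrophil, platelet and red cell sums are higher in every Model library, T and B cell sums lower in every Model library, and the monocyte and dendritic cell sums overlap between the groups. Ccr7 made up most of the dendritic cell sum in Model 1.

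The make-up of the alpha chains that pair with Itgb2 differed between the groups. Itgam took 20.8%, 31.4% and 40.6% of the summed counts per kb of exon of Itgam, Itgal, Itgax and Itgad across Control 1 to 3, and 60.3%, 78.8% and 77.5% across Model 1 to 3. Itgal took 75.9%, 54.3% and 47.4% across Control 1 to 3 and 37.2%, 19.5% and 18.2% across Model 1 to 3. Itgal was thus the leading alpha chain in all 3 Control libraries and Itgam in all 3 Model libraries. The Itgam share averaged 30.9 ± 9.96% in Control and 72.2 ± 10.3% in Model, 41.3 percentage points more, and the Itgal share 59.2 ± 14.8% and 24.98 ± 10.6%. Itgax held 3.39% to 13.7% in Control and 1.65% to 4.31% in Model, and Itgad at most 0.613%. By exact two-sided permutation over samples p was 0.10 for Itgam and Itgal, the smallest that 3 against 3 allows, and 0.20 after adjustment over 4 shares. Itgad was listed at 0 in 4 libraries and at 1.34 CPM at most. As levels, Itgam was called higher and Itgal was not called.

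**Figure D3:**
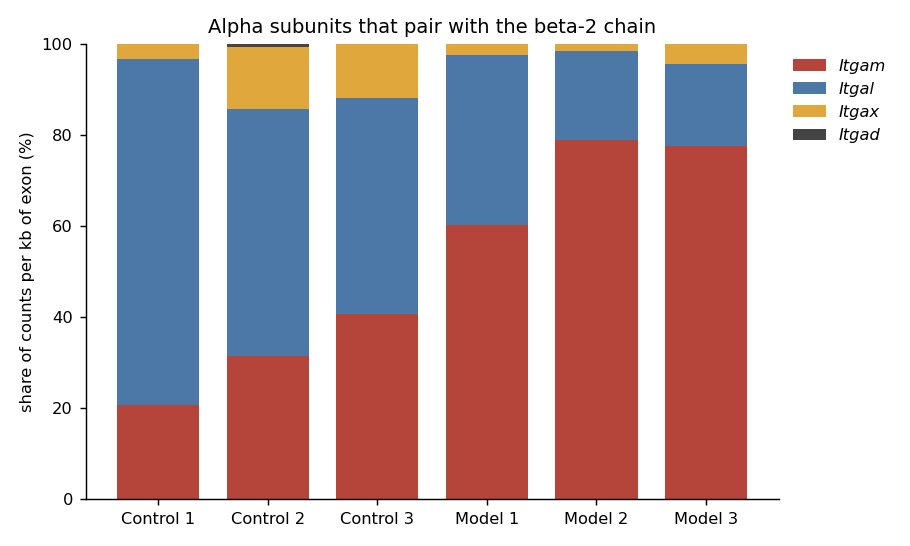
Stacked bars give the share (%) of counts per kb of exon taken by Itgam, Itgal, Itgax and Itgad in each of the 6 libraries. The Itgam share lies between 20.8% and 40.6% in Control and between 60.3% and 78.8% in Model.

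Ratios within a library do not depend on how libraries are scaled. The count ratio of Itgam to Itgal was 0.209, 0.442 and 0.656 across Control 1 to 3 and 1.24, 3.09 and 3.25 across Model 1 to 3, a 5.90-fold difference between the group means on the log scale. For Itgam to Itgax the ratio was 6.40, 2.40 and 3.56 across Control 1 to 3 and 25.5, 50.1 and 18.8 across Model 1 to 3. Itgam to Itgb2 gave 0.298, 0.629 and 0.708 across Control 1 to 3 and 1.48, 2.18 and 1.78 across Model 1 to 3, or 3.51-fold. None of these 3 ratios overlapped between the groups. The ratio of Itga4 to Itgb7 did not overlap either, with 3.999, 4.65 and 3.92 across Control 1 to 3 and 5.89, 12.5 and 13.7 across Model 1 to 3. Itgal to Itgb2 was lower on average in Model (log2 difference -0.75, exact permutation p = 0.20), and Fermt3 to Itgb2 differed by 0.03 on the log2 scale (exact permutation p = 1). For the 4 ratios without overlap the exact permutation p was 0.10, the smallest possible, and 0.15 after adjustment over 6 ratios. Each of these 4 holds Itgam or Itgb7, the 2 members whose levels did not overlap, so they largely restate those levels. The share of all gene pairs without overlap was not computed. Without Control 1 and Model 2 together the log2 difference of the Itgam to Itgb2 ratio was 1.28 in place of 1.81.

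The alpha chains together also stood higher against their beta chain. Per kb of exon, summed Itgam, Itgal, Itgax and Itgad came to 0.873, 1.22 and 1.06 times Itgb2 across Control 1 to 3 and to 1.496, 1.68 and 1.39 times across Model 1 to 3. Of these alpha chains, Itgam alone had a higher mean level in Model than in Control. This ratio was chosen after the members' values were seen, so its p-value is a description and not a test. Its groups did not overlap, and the log2 difference was 0.55 (SD 0.24 in Control and 0.14 in Model, n = 3 each, exact permutation p = 0.10, the smallest possible).

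Levels can be compared between genes only per length. Per kb of exon, Itgb2 was the most abundant member in all 3 Control libraries, at 39.8 to 111 CPM per kb, and Itgal and Itgb7 took the next places at 26.3 to 73.2. In Model, Itgam led in Model 2 and Model 3 and stood behind Itgb2 in Model 1, with 58.8 to 138 CPM per kb against 63.0 to 104 for Itgb2, so these neighbours overlapped. Itgb7 was sixth in every Model library (6.12 to 21.3 CPM per kb, against 27.0 to 56.9 in Control). The Control ranges of Itgal (26.3 to 73.2), Itgb7 and Itga4 (24.8 to 45.1) overlapped, as did those of Itgam (15.2 to 26.4) and Fermt3 (13.3 to 32.4). Itga4 has 13978 bases of annotated exon but 3096 of coding sequence. Per kb of coding sequence it averaged 150 CPM in Control, above Itgb2 with 93.3, so the order depends on the length used.

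Ptprc (CD45), the phosphatase carried by all nucleated white cells, was at 1673, 676 and 890.3 CPM across Control 1 to 3 and at 511, 654 and 403 CPM across Model 1 to 3. It was lower in every Model library, by a log2 value of -1.05 (SE 0.34 and adjusted p = 0.127), and -0.60 without Control 1. Ptprc was called lower in 2 of 14 alternative fits, no filter (adjusted p = 0.0160) and DESeq2 (0.0164). Against Ptprc in the same library, Itgam counts were 0.0601, 0.113 and 0.149 across Control 1 to 3 and 0.578, 1.06 and 0.848 across Model 1 to 3, an 8-fold difference. Itgb2 to Ptprc was 0.202, 0.180 and 0.210 across Control 1 to 3 and 0.389, 0.486 and 0.477 across Model 1 to 3, a 2.28-fold difference with little spread in either group. Fermt3 to Ptprc was 0.112, 0.114 and 0.109 across Control 1 to 3, nearly constant, and 0.335, 0.328 and 0.159 across Model 1 to 3. Itga4 to Ptprc was higher in each Model library than in each Control library (0.574 to 0.680 against 0.376 to 0.513), by 0.43 on the log2 scale. The ratios of Itgal, Itgax and Itgb7 to Ptprc overlapped between the groups, with log2 differences of 0.44, 0.07 and -0.83. The exact permutation p was 0.10 for Itgam, Itgb2, Itga4 and Fermt3, the smallest possible, and 0.175 after adjustment over 7 ratios. For Itgal, Itgax and Itgb7 the exact permutation p was 0.20, 0.90 and 0.30. Ptprc was itself lower in Model, so a gene whose level did not change also stands higher against it. The median log2 fold change of all genes tested was -0.01, against -1.05 for Ptprc. The log2 difference of the ratio was 1.19 for Itgb2 and 1.22 for Fermt3, and 0.43 for Itga4. The share of all genes whose ratio to Ptprc did not overlap was not computed. Platelets also carry Fermt3. Model 3 had the lowest platelet sum and the lowest Fermt3 ratio of the Model libraries. Within Control the platelet sums ranged from 54.3 to 152 CPM with the ratio nearly constant. Most of each Control sum was Itga2b, at 135, 35.6 and 55.1 CPM in Control 1 to 3, so that range was largely the range of Itga2b. The part of platelets in this ratio was not tested.

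**Figure D4:**
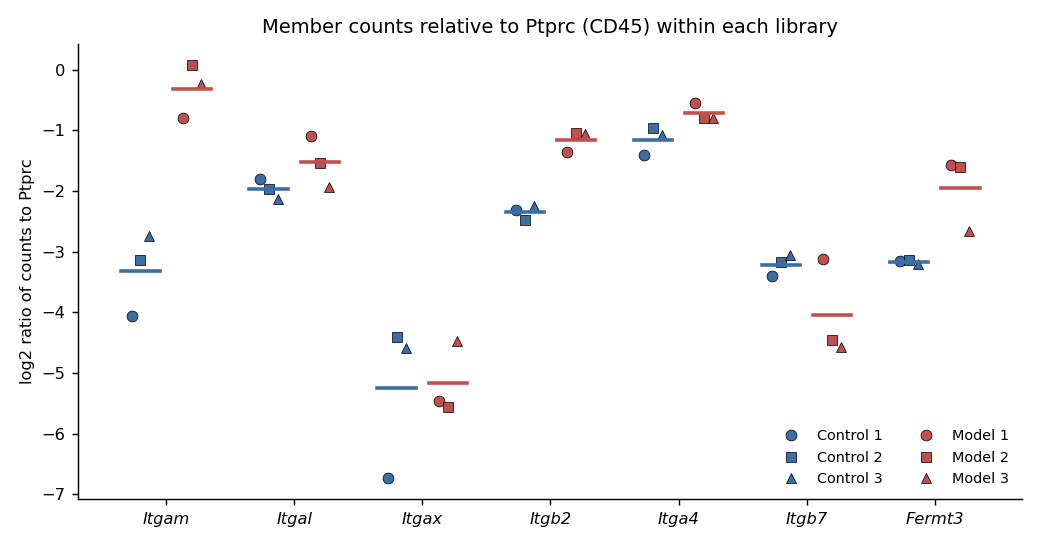
The log2 ratio of each gene's count to the Ptprc count in the same library, Control in blue and Model in red, with bars at the group means. Itgam, Itgb2, Itga4 and Fermt3 lie higher against Ptprc in every Model library than in any Control library. The Ptprc level was itself lower in every Model library.

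Other integrin chains were counted from a list of 10, of which 9 were tested. Of these, 3 rose and none fell, beside 2.71% and 1.36% of all genes, and the median log2 fold change was 0.82, beside -0.01 over all genes tested. The platelet fibrinogen receptor chains rose: Itgb3 from 99.9 ± 26.5 to 573 ± 240 CPM (log2 fold change 2.52, SE 0.35, adjusted p = 0.00134) and Itga2b from 75.4 ± 52.9 to 289 ± 128 CPM (1.94, SE 0.47 and adjusted p = 0.0389, SD with n = 3 each). Itga2b was no longer called when any of Control 2, Control 3, Model 1 and Model 2 was left out, with adjusted p from 0.0846 to 0.161, and its log2 fold change was 2.66 without Control 1. Itga5, the alpha chain of the fibronectin receptor, rose from 80.8 ± 7.07 to 373 ± 55.9 CPM (2.21, SE 0.24). Itgb1, the other partner of Itga4, was at 738, 581 and 588 CPM in Control 1 to 3 and 909, 1039 and 766 CPM in Model 1 to 3, with no overlap and a log2 fold change of 0.51 (SE 0.24 and adjusted p = 0.338). Itgae, the alpha chain that pairs with Itgb7 on lymphocytes of epithelia, was at 24.6 to 31.4 CPM in Control and 1.13 to 8.08 CPM in Model (-2.92, SE 0.88 and adjusted p = 0.0983). Itgae was called lower without a filter, by DESeq2 (adjusted p = 0.00467), without Model 2 (log2 fold change -4.26, adjusted p = 0.0314), and without Control 1 and Model 2 together (0.0450). Itgb2l, a mouse gene related to Itgb2, was at 0, 0.609 and 0.412 CPM in Control 1 to 3 and at 19.6, 5.24 and 7.80 CPM in Model 1 to 3. Its log2 fold change of 4.98 (SE 1.68) did not pass (adjusted p = 0.145), and DESeq2 called it (adjusted p = 0.00254).

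Of 16 tested genes that switch integrins on from inside the cell, none rose and 1 fell, beside 2.71% and 1.36% of all genes, with a median log2 fold change of -0.01. The 1 was Rasgrp1, a Ras activator of T cells, which fell from 186 ± 90.3 to 41.1 ± 8.03 CPM (log2 fold change -2.18, SE 0.36, adjusted p = 0.00485), a call lost without Control 1 and Model 2 together (adjusted p = 0.0749). Tln1 (talin), which binds beta tails and links them to actin, averaged 930.0 ± 269 CPM in Control and 951 ± 118 CPM in Model, and its log2 fold change of 0.03 (SE 0.27) turned negative under upper-quartile scaling and without Control 2, Control 3 or Model 2. Rasgrp2, the Rap activator of platelets and neutrophils, had a log2 value of -0.47 (SE 0.38 and adjusted p = 0.620). Apbb1ip, which links Rap1 to talin, had one of -0.06 (SE 0.26), and positive without Control 1 or Model 1.

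Among 14 kinases, adaptors and other proteins that carry signals from a bound integrin, 1 rose and 1 fell, beside 2.71% and 1.36% of all genes, with a median log2 fold change of 0.21. Fgr, a Src family kinase of myeloid cells, rose from 27.8 ± 5.91 to 96.7 ± 41.2 CPM (1.80, SE 0.40 and adjusted p = 0.0235). Plcg2, a phospholipase of B cells and myeloid cells, fell from 202 ± 75.5 to 85.4 ± 20.02 CPM (-1.24, SE 0.31 and adjusted p = 0.0436). Both calls were fragile. Fgr lost its call without Control 1, Control 2 or Model 2 (adjusted p from 0.0668 to 0.140), and Plcg2 with limma-voom and without Control 1, Control 3, Model 1 or Model 2 (0.0614 to 0.154). Without Control 1 and Model 2 together both were lost (0.157 and 0.283).

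Among ligands, 13 of 15 were tested, none rose and 2 fell, beside 2.71% and 1.36% of all genes, with a median log2 fold change of -0.20. Thy1, a ligand of Mac-1 that is also a T cell marker in mice, fell from 118 ± 63.0 to 17.4 ± 1.82 CPM (-2.76, SE 0.41 and adjusted p = 0.00231). Jam3, a junctional ligand of Mac-1, fell from 61.1 ± 19.98 to 16.8 ± 7.77 CPM (-1.87, SE 0.48 and adjusted p = 0.0496), a call lost without any 1 library but Model 1, without Control 1 and Model 2 together, with RLE scaling and with limma-voom (0.0504 to 0.269). Icam1, the main ligand of LFA-1 and Mac-1 on endothelium, was at 169, 50.2 and 88.4 CPM in Control 1 to 3 and 24.6, 46.8 and 74.8 CPM in Model 1 to 3 (-1.07, SE 0.48 and adjusted p = 0.2996). Vcam1, the ligand of VLA-4, was at 198 ± 73.8 and 254 ± 60.2 CPM (0.36, SE 0.30 and adjusted p = 0.637), and Icam2, a further LFA-1 ligand, at 25.1 ± 4.92 and 20.03 ± 15.2 CPM (-0.32, SE 0.65). Madcam1, the ligand of the gut-homing receptor, was listed at 0.389 CPM at most and was not tested. The fibrinogen chains Fga, Fgb and Fgg, ligands of Mac-1 made by the liver, reached 273, 280 and 187 CPM in Model 2, the library with the highest liver sum, and 59.4 CPM or less elsewhere.

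**Figure D5:**
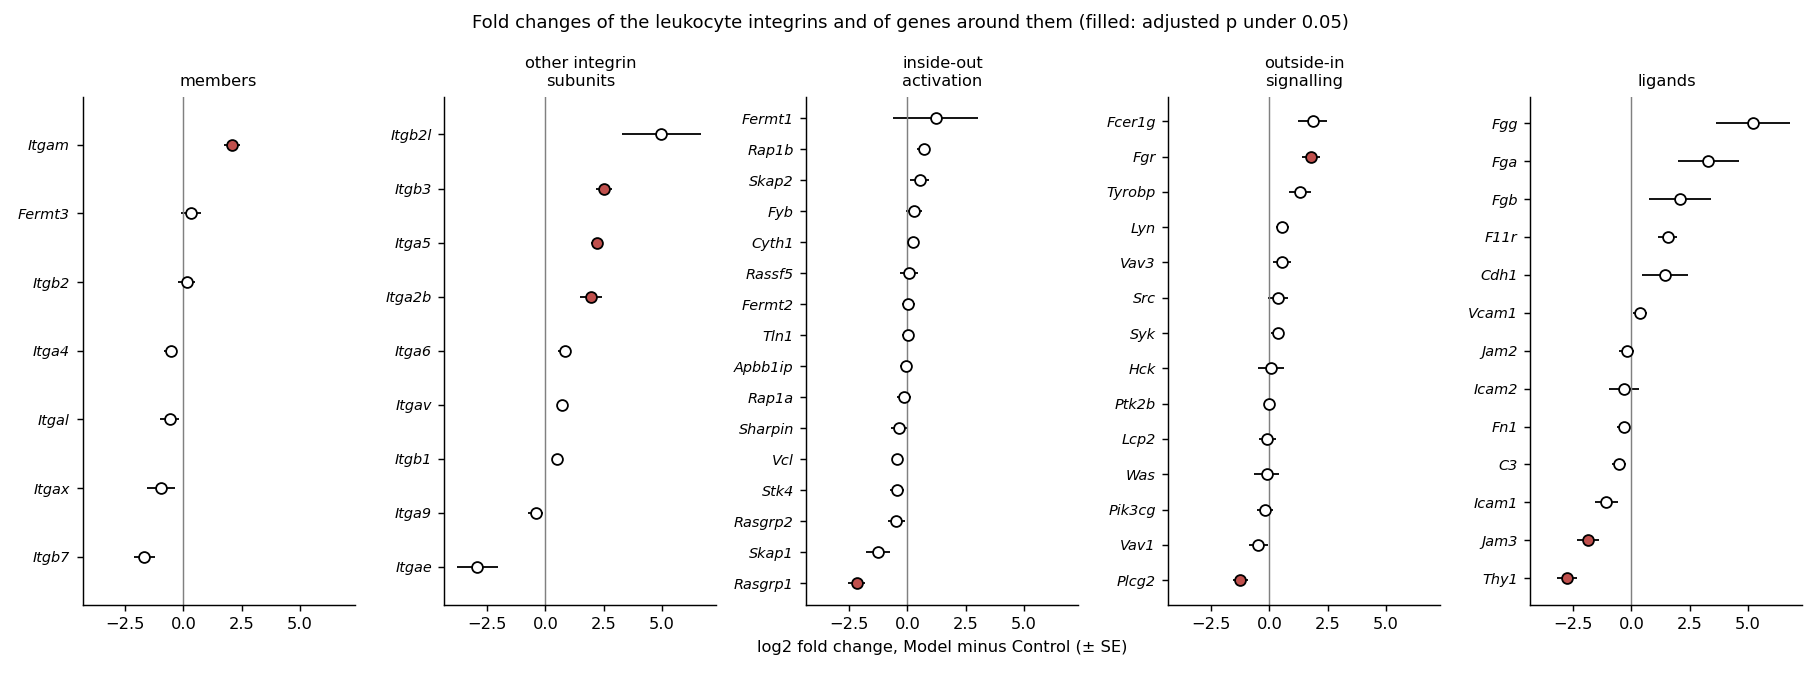
Log2 fold changes (Model minus Control, points) with their SE (lines) for the 7 genes, 9 other integrin chains, 16 activators, 14 signalling genes and 13 ligands, filled where the adjusted p was under 0.05. Itgam is the 1 filled point among the 7.

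Outside the set, the genes whose pattern over the 6 libraries was nearest to a member were taken from 10421 genes with at least 8 CPM on average. For Itgam they were Fgr (root-mean-square difference 0.20 in log2 CPM), Cd33 (0.21) and Il13ra1 (0.27), and Cd33 went from 30.2 to 55.1 CPM in Control to 167 to 391 CPM in Model. For Itgb2 they were Csf2rb (0.085), Gbp6 (0.14) and Ubap1 (0.15). Pag1 (0.11), Fam101b (0.14) and Casc5 (0.16) were nearest to Itgal, and Rfx7, Sulf1 and Ccm2l (0.096 to 0.097) to Itga4. Pak1, Galnt10 and Jam3 (0.16) were nearest to Itgb7, Ddb2, Olfml2b and Sntb1 (0.20 to 0.22) to Itgax, and Hist1h2be and Gsap (0.16 and 0.17) to Fermt3. With 6 libraries, such nearness is a description of these samples.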

How the data were processed

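Total RNA was depleted of ribosomal RNA, made into libraries with a low-input kit, sequenced as read pairs on an Illumina instrument and trimmed with cutadapt 1.9.3, per the labels' protocols. STAR 2.5.1b, edgeR 3.16.5 and the build mm10 appear in the submitters' processing notes. No source used here gives the counting tool, the annotation or whether strand was used. Raw counts per gene were taken as the authors deposited them, per the file headers. Another 6 sample columns, normalized by the authors, were left aside.

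Genes were filtered with filterByExpr (minimum count 10), scaled by TMM and tested with edgeR 4.0.16 (quasi-likelihood, two-sided, R 4.3.3), Model against Control, over 13907 genes. SE is the absolute log2 fold change over the square root of F. Ratios and shares were tested by exact permutation over samples (scipy 1.17.1) after adding 0.5 to each count for ratios. Exon lengths came from GENCODE M21, which held 17555 of the 17761 identifiers. Adgre1 and Siglecf were matched by gene identifier to the rows Emr1 and Siglec5. The test was run on simulated data beforehand.

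The members and lists were chosen with earlier results of these data known. Named genes were the 7 members, 14 fixed genes, list members past the test, and the 3 genes nearest to each member, of which 1 is not reported here. Alternatives were DESeq2 1.42.0, limma-voom (limma 3.58.1), scaling by RLE or upper quartile, a minimum count of 100 or none, the replicate number as a block, leaving out each library, and leaving out Control 1 and Model 2 together.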

Additional observations from a re-analysis of the deposited data

How the results depend on the processing

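Itgam was called higher in all 14 alternative fits. No other member was called in the main analysis, and 1 member, Itgb7, was called lower with upper-quartile scaling, no filter, DESeq2 and the replicate block; leaving out 1 library gave 0 to 1 lower members. Over all genes, 377 higher and 189 lower became 642 and 469 with no filter and 639 and 578 with DESeq2, 115 lower with limma-voom, and 222 and 63 without Control 1 and Model 2 together. Leaving out 1 library gave 221 to 312 higher and 92 to 136 lower genes; the fewest higher genes came without Model 1 (221) and the fewest lower ones without Control 1 (92) and Model 1 (96). Among other integrin chains, 1 was lower with no filter, DESeq2 and without Control 1 and Model 2 together, against 0, and 0 to 1 without 1 library. Among activators, 2 were lower with no filter and 0 without Control 1 and Model 2 together, against 1. Among signalling genes, 3 were higher with no filter and 2 with DESeq2 or the replicate block, against 1; 0 were lower with limma-voom, and 0 were called either way without Control 1 and Model 2 together. Leaving out 1 library gave 0 to 2 higher and 0 to 1 lower signalling genes. Among ligands, 5 were higher with no filter and 1 with DESeq2, limma-voom or the replicate block, against 0, and 1 was lower with RLE scaling, limma-voom or without Control 1 and Model 2 together, against 2. Leaving out 1 library gave 0 to 2 higher and 1 to 2 lower ligands. The cause of these differences was not tested.

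Some values near 0 changed sign. Over the fits that leave out 1 library, log2 fold changes ran from -0.15 to 0.60 for Itgb2, -0.034 to 0.77 for Fermt3, -0.090 to 0.28 for Tln1, -0.18 to 0.035 for Apbb1ip and -1.11 to 0.079 for Icam2. Tln1 was -0.0078 with upper-quartile scaling. Log2 differences ran from -0.26 to 0.43 for Fermt3 to Itgb2 and -0.67 to 0.49 for Itgax to Ptprc, and were -0.095 and -0.47 without Control 1 and Model 2 together. The Itgad share differed by -0.288 to 0.0184 points. The other ratios and shares kept their direction in every setting run. Shared replicate numbers were not taken as pairs: deviations from the group means correlated at 0.147, 0.119 and 0.004 for numbers 1 to 3, and 4 of 6 samples correlated best with their own number. With the replicate block, exact p-values of ratios and shares cannot go below 0.25 (Itgam to Itgb2 1.81), and 379 genes were higher and 196 lower. Among members the block changed the call of Itgb7 alone (adjusted p = 0.0198). Other scalings moved the median of all genes by less than 0.1. With 3 libraries a group, precision is low and genes that missed the threshold may still differ.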
